A study of Mus musculus with 15 samples.

Results

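Chaperones are the proteins that help other proteins fold, keep them soluble and hand the ones that cannot be folded to degradation. The 79 chaperone genes described here were taken by symbol from the 27019 gene symbols of a count table. They are the HSP70, HSP90, HSP110, HSP60 and HSP10 genes and the small heat shock protein genes (symbols starting with Hsp), the J protein genes (Dnaja, Dnajb and Dnajc) and the subunits of the cytosolic chaperonin (Cct genes and Tcp1). The symbols matched 86 rows, of which 7 were pseudogenes and were left out. The rule goes by symbol alone, although earlier results of these data were known when the family was chosen. The table comes from poly(A) RNA of CD8+ T cells enriched from mouse spleen with magnetic beads that remove other cells. The mice were C57BL/6, 8 to 10 weeks of age, and all carried OT-I, a transgenic T cell receptor for the ovalbumin peptide OVA257-264. The groups, each of 2 libraries, were untreated Susd2-/- cells (day 0), untreated WT cells (day 0), cells from Susd2-/- splenocytes stimulated with the peptide for 3 days (day 3) and cells from WT splenocytes stimulated in the same way (day 3). Susd2 codes for a membrane protein that carries a sushi domain. The labels do not say how the Susd2-/- allele was made, and they leave unsaid whether the 2 libraries in each group were made from different mice. P-values therefore rest on library-to-library spread alone, which may be technical.

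HSP70 proteins bind and release unfolded stretches of their clients in a cycle driven by ATP. J proteins bring clients to HSP70 and start ATP hydrolysis, and HSP110 proteins exchange the nucleotide so that the client is let go. HSP90 proteins take over part of the clients, among them kinases and steroid receptors, with the help of co-chaperones, and the ring-shaped chaperonins (TRiC/CCT in the cytosol, HSP60 with HSP10 in mitochondria) enclose a client while it folds. Many cytosolic inducible members are targets of the heat shock factor HSF1, and many ER members are targets of the unfolded protein response. A T cell that responds to antigen makes much more protein than a resting one and so has more protein to fold.

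Library totals ran from 26829807 to 53846911 counts. The libraries of a group differed from each other with a chi-square per degree of freedom over genes of 6.30 in Susd2-/- cells and 3.37 in WT cells at day 0, and 16.0 in Susd2-/- cells and 12.5 in WT cells at day 3, against 3.01 to 3.17 between sequencing lanes of 1 library. The WT libraries of day 0 thus differed little more than lanes did, so day 0 results are also given with both day 0 libraries of a genotype summed and counted as 1, a setting chosen after seeing the data. Susd2 had 1 and 3 counts in Susd2-/- cells at day 0, against 90 and 80 counts in WT cells, and 0 and 2 counts at day 3 in Susd2-/- cells, against 16 and 10 counts in WT cells. The CD8+ T cell markers were present in every library, with a summed level of 3528 and 3336 CPM (counts scaled to 1000000 per library, with the TMM factors of edgeR) in Susd2-/- cells at day 0, against 3910.0 and 3899.5 CPM in WT cells. Of these 6 markers, 3 were lower in Susd2-/- cells at day 0. Markers of macrophages and monocytes were also present at day 0 and moved with genotype. The 13 macrophage and monocyte markers summed to 185 and 176 CPM in Susd2-/- cells at day 0, against 85.9 and 88.4 CPM in WT cells, and 10 of the 13 were higher in Susd2-/- cells. At day 3 they summed to 10.3 and 6.81 CPM in Susd2-/- cells, against 9.08 and 11.0 CPM in WT cells, with 7 to 10 of the 13 at 0 in each library. B cell markers stood at a higher level and also differed, with 667 and 602 CPM in Susd2-/- cells at day 0, against 529 and 538 CPM in WT cells (2 of 7 higher, none lower). At day 3 they had 291 and 279 CPM in Susd2-/- cells, against 267 and 261 CPM in WT cells. The summed markers of plasma cells and of NK cells were lower in Susd2-/- cells at day 0. Plasma cell markers had 13.7 and 10.2 CPM in Susd2-/- cells, against 40.5 and 38.8 CPM in WT cells (3 of 5 tested lower, 1 higher). NK cell markers had 17.3 and 20.4 CPM in Susd2-/- cells, against 30.5 and 28.8 CPM in WT cells (2 of 5 lower, none higher). The part of these cells in the day 0 results was not tested. In bulk RNA, fewer cells of a type and less RNA per cell cannot be told apart.

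Chaperone transcripts made up 1.46% and 1.45% of all counts in Susd2-/- cells at day 0, against 1.20% and 1.20% in WT cells. At day 3 they made up 3.31% and 3.45% in Susd2-/- cells, against 3.30% and 3.15% in WT cells. The day 3 libraries thus lay above all day 0 libraries, and at day 0 both Susd2-/- libraries lay above both WT libraries, and the same held by a narrower margin at day 3. On the TMM scale the day 3 groups overlapped, with 35261 and 36613 summed CPM in Susd2-/- cells, against 35545 and 33700.0 in WT cells. A permutation of 2 against 2 libraries cannot give a two-sided p below 1 in 3, so these sums are given as descriptions. Hsp90ab1 and Hspa8 held most of the constitutive cytosolic share, which was 0.579% and 0.569% in Susd2-/- cells at day 0, against 0.415% and 0.414% in WT cells. The inducible cytosolic members held 0.194% and 0.196% in Susd2-/- cells at day 0, against 0.155% and 0.151% in WT cells, and the ER members 0.186% and 0.185% in Susd2-/- cells, against 0.160% and 0.158% in WT cells. The chaperonin TRiC/CCT (0.243% and 0.243% in Susd2-/- cells, against 0.227% and 0.224% in WT cells) and the mitochondrial members (0.0968% and 0.0983% in Susd2-/- cells, against 0.0910% and 0.0911% in WT cells) differed less between the genotypes at day 0.

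**Figure D1:**
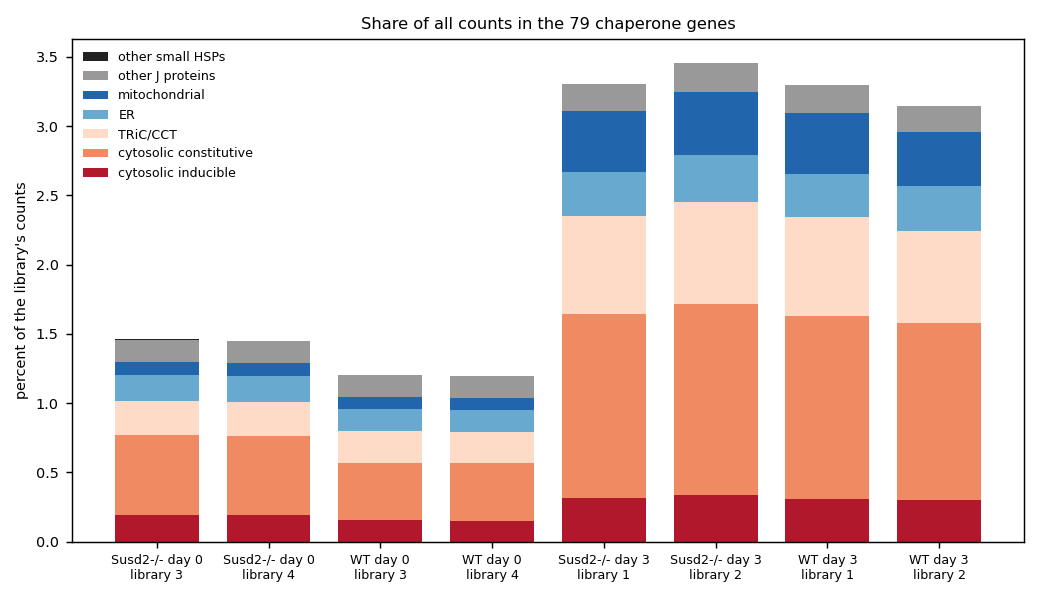
Bars give the percent of each library's counts that fell in the 79 chaperone genes, stacked by compartment, for the 2 libraries of each group. The 4 day 3 libraries reach 3.15% to 3.45%, the 2 Susd2-/- libraries of day 0 1.45% and 1.46%, and the 2 WT libraries of day 0 1.20% each.

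Levels can be compared between genes only per length, here as CPM per kilobase of the annotated exons of a gene (GENCODE M21). On that scale Hsp90ab1, the constitutive HSP90, stood first in all 4 groups, with 880 ± 23.6 CPM per kilobase in Susd2-/- cells at day 0, against 579 ± 0.382 in WT cells (SD, n = 2). Hspa8, the constitutive HSP70, stood second in all 4 groups, with 534 ± 11.4 in Susd2-/- cells at day 0, against 424 ± 4.15 in WT cells. After them came Cct2 at day 0 in both genotypes, and Hspd1 at day 3, the mitochondrial HSP60, with 945 ± 26.7 in Susd2-/- cells, against 854 ± 112 in WT cells. Hsph1, an HSP110, stood 19th in Susd2-/- cells at day 0 and 28th in WT cells.

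The first comparison asked how untreated Susd2-/- cells differed from untreated WT cells. The 72 members that passed the filter on low counts were tested in one edgeR quasi-likelihood fit over 16057 genes, with Benjamini-Hochberg adjustment over all of them, and a member is called higher or lower, or is said to have risen or fallen, at an adjusted p below 0.05. Of the 72, 15 were higher and 10 lower in Susd2-/- cells at day 0. Over all 16057 genes, 23.6% were called, 11.5% higher and 12.1% lower, against 34.7% of the tested members (20.8% higher and 13.9% lower). The members' median log2 fold change was 0.0055, against 0.0077 for all genes, so the members did not move one way as a whole. What follows goes through them by compartment. Statements that libraries of the genotypes lay apart or did not overlap describe the same libraries as the tests. They add no support to a call, and the share of all genes with such a separation was not counted.

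**Figure D2:**
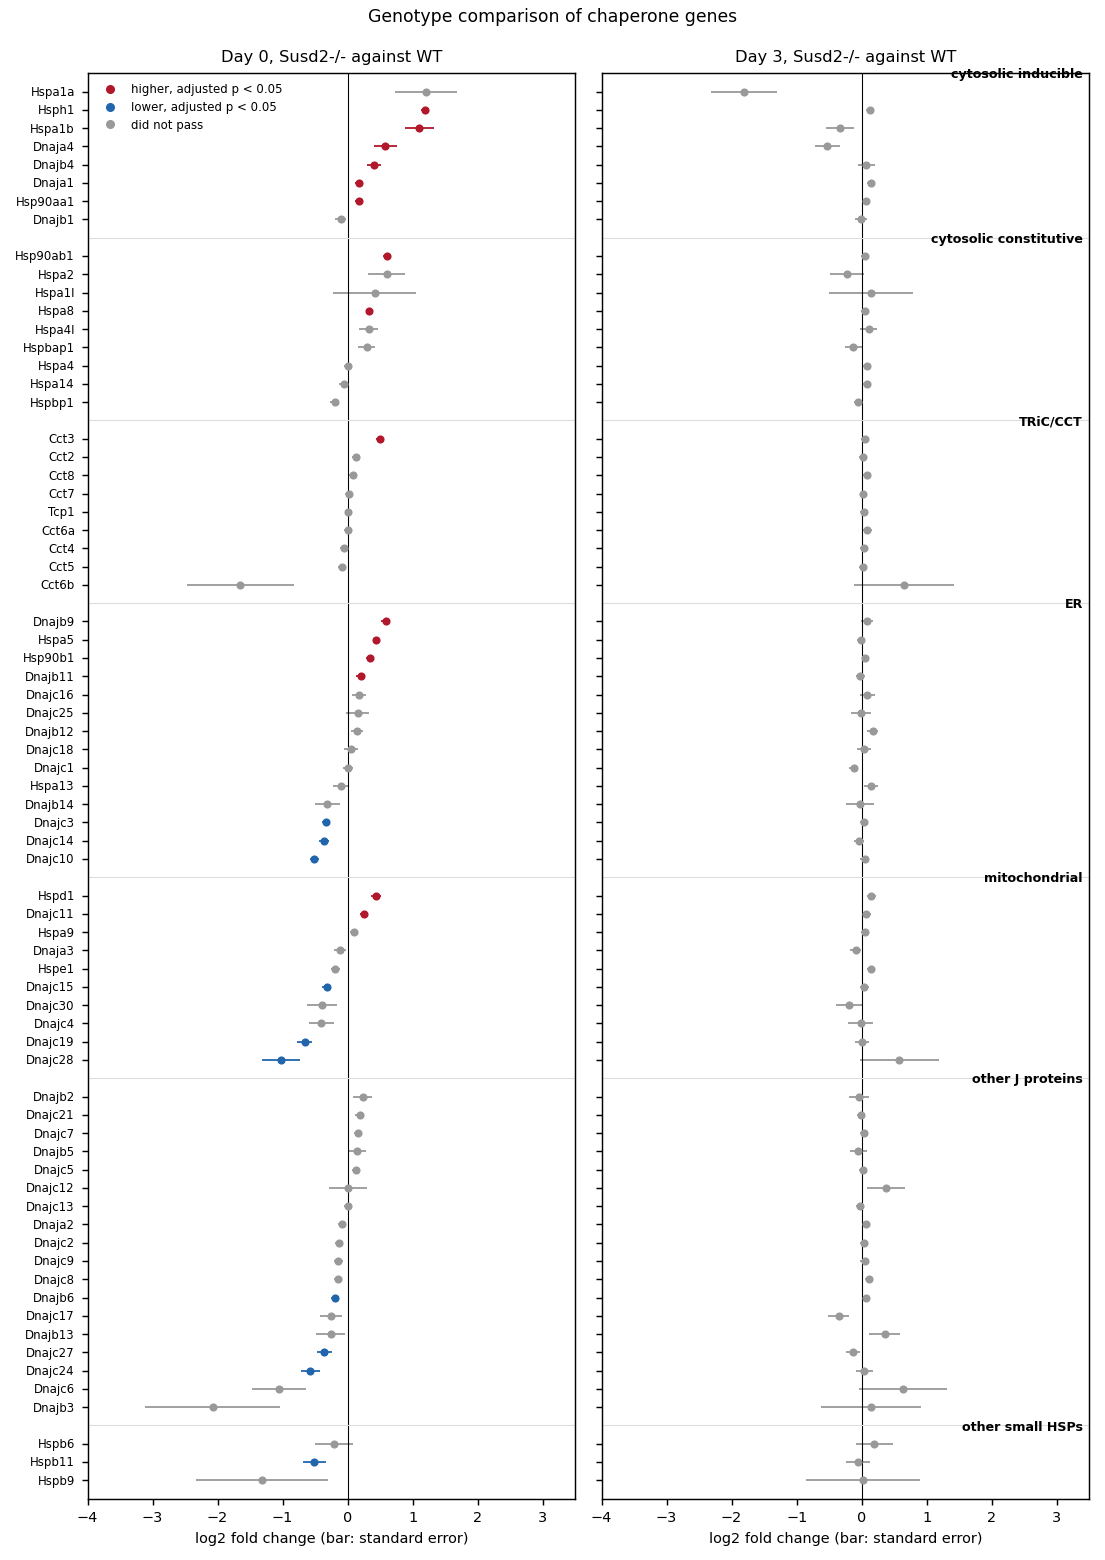
Points give the log2 fold change of Susd2-/- against WT for the tested members listed on the left, at day 0 (left) and day 3 (right), with bars of 1 standard error, sorted within compartments by the day 0 value. Red points were higher and blue points lower at an adjusted p below 0.05, which 15 and 10 members were at day 0 and none was at day 3.

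Of the 8 tested inducible cytosolic members, 6 were higher in Susd2-/- cells at day 0 and none was lower. The clearest was Hsph1, the HSP110 that serves as nucleotide exchange factor of cytosolic HSP70 (chr5:149614287-149636376, minus strand, GRCm38). It had 372 and 387 CPM in Susd2-/- cells, against 167 and 167 CPM in WT cells (log2 fold change 1.19 ± 0.065 (SE), adjusted p = 3.9e-10), which is 2.27-fold higher, and the groups were far apart. Its level in untreated Susd2-/- cells lay in the range of day 3, when it had 375 and 399.9 CPM in Susd2-/- cells, against 372 and 336 CPM in WT cells. The genes of the stress-inducible HSP70 itself, Hspa1a and Hspa1b, are near-identical neighbours on chromosome 17, so the split of reads between them is uncertain, and both were scarce. Hspa1b had 8.77 and 8.31 CPM in Susd2-/- cells, against 4.25 and 3.69 CPM in WT cells (log2 fold change 1.10 ± 0.22 (SE), adjusted p = 0.0011). Hspa1a had 1.30 and 1.78 CPM in Susd2-/- cells, against 0.844 and 0.478 CPM in WT cells, a difference that did not pass (log2 fold change 1.20 ± 0.48 (SE), adjusted p = 0.0784). With the reads of the pair summed, they had 10.1 and 10.1 CPM in Susd2-/- cells, against 5.09 and 4.17 CPM in WT cells, and the groups did not overlap.

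The other inducible members differed less. Dnaja4, a cytosolic J protein, had 18.9 and 20.4 CPM in Susd2-/- cells, against 13.4 and 12.8 CPM in WT cells (log2 fold change 0.58 ± 0.18 (SE), adjusted p = 0.0262). Dnajb4, another J protein partner of HSP70, had 43.6 and 47.9 CPM in Susd2-/- cells, against 34.9 and 34.4 CPM in WT cells (log2 fold change 0.40 ± 0.11 (SE), adjusted p = 0.00968). For both genes the libraries of the genotypes did not overlap. Hsp90aa1, the inducible HSP90, was just past the threshold, with 535 and 515 CPM in Susd2-/- cells, against 467 and 466 CPM in WT cells (log2 fold change 0.17 ± 0.059 (SE), adjusted p = 0.0428). So was Dnaja1, a J protein that works with HSP70, with 645 and 649 CPM in Susd2-/- cells, against 587 and 561 CPM in WT cells (log2 fold change 0.17 ± 0.059 (SE), adjusted p = 0.042). Dnajb1, the heat-inducible J protein that works with HSP70 in refolding, did not pass, with 181 and 168 CPM in Susd2-/- cells, against 192 and 185 CPM in WT cells (log2 fold change -0.11 ± 0.084 (SE), adjusted p = 0.396). Hspb1, the small heat shock protein HSP27, had 4 counts in 1 Susd2-/- library and 0 in the other 7 libraries, which is too few to test.

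The promoter windows of 65 of the 79 members are in the RefSeq table (build GRCm38.p6). Each window holds 300 bases, 250 before and 50 after an annotated start, and a gene can have several. The heat shock element, to which heat shock factors bind, is built of inverted GAA units. The 2-unit form was searched as GAANNTTC or TTCNNGAA, and the 3-unit form, which contains both 2-unit forms, as TTCNNGAANNTTC or GAANNTTCNNGAA. Both are read on both strands. The 2-unit form is in 8 of 14 windows of the inducible cytosolic genes (57.1%) and in 15.1% of all 32851 windows, and the 3-unit form is in the windows of 4 members (Hsph1, Hspd1, Hspe1 and Dnajb6) and in 0.603% of all windows. Some windows overlap, as for Hsph1, or are near copies, as for Hspa1a and Hspa1b, so the windows counted are not independent. By day 0 call, the 2-unit form is in 7 of 17 windows of higher members and in 4 of 12 windows of lower members. It is in 6 of 48 windows of members that did not pass. The 3-unit form is in 3 of 17, 2 of 12 and 1 of 48 of these windows. A match is only a description of these letters. The stretches of Hsph1 (chr5:149636286-149636535, minus strand) and Hspa1b (chr17:34959209-34959458, minus strand), from 220 bases before to 30 bases after the start, are shown because these were the inducible members with the largest called differences, with heat shock elements in capitals.
Hsph1: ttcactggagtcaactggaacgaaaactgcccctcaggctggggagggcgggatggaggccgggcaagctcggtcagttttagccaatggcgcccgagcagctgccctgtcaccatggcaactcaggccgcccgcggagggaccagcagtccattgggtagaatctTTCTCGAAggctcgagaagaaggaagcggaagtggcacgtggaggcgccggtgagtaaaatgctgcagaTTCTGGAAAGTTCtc
Hspa1b: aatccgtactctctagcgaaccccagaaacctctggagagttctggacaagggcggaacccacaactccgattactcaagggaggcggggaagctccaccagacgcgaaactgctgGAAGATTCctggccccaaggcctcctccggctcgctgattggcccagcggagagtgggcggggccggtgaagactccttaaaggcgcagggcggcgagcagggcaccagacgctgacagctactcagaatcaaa

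Among the constitutive cytosolic members, 2 of 9 tested rose and none fell, and they were the chaperones with the highest levels per kilobase. Hsp90ab1 had 2688 and 2588 CPM in Susd2-/- cells, against 1738 and 1737 CPM in WT cells (log2 fold change 0.60 ± 0.057 (SE), adjusted p = 6.02e-07). Hspa8, the constitutive HSP70 (Hsc70), had 2330.3 and 2261 CPM in Susd2-/- cells, against 1834 and 1809 CPM in WT cells (log2 fold change 0.33 ± 0.058 (SE), adjusted p = 0.00035). For both genes the Susd2-/- and WT libraries were apart. Hspa4, a constitutive HSP110, did not pass, with 229 and 216 CPM in Susd2-/- cells, against 218 and 225 CPM in WT cells (log2 fold change 0.01 ± 0.061 (SE), adjusted p = 0.966). Hspbp1, an exchange factor that opposes HSP70 binding, also missed the threshold, with 38.1 and 37.0 CPM in Susd2-/- cells, against 41.4 and 44.8 CPM in WT cells (adjusted p = 0.0543). Hspa2, Hspa1l, Hspa4l, Hspa14 and Hspbap1 did not pass either, with log2 fold changes of -0.06 (Hspa14) to 0.60 (Hspa2).

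**Figure D3:**
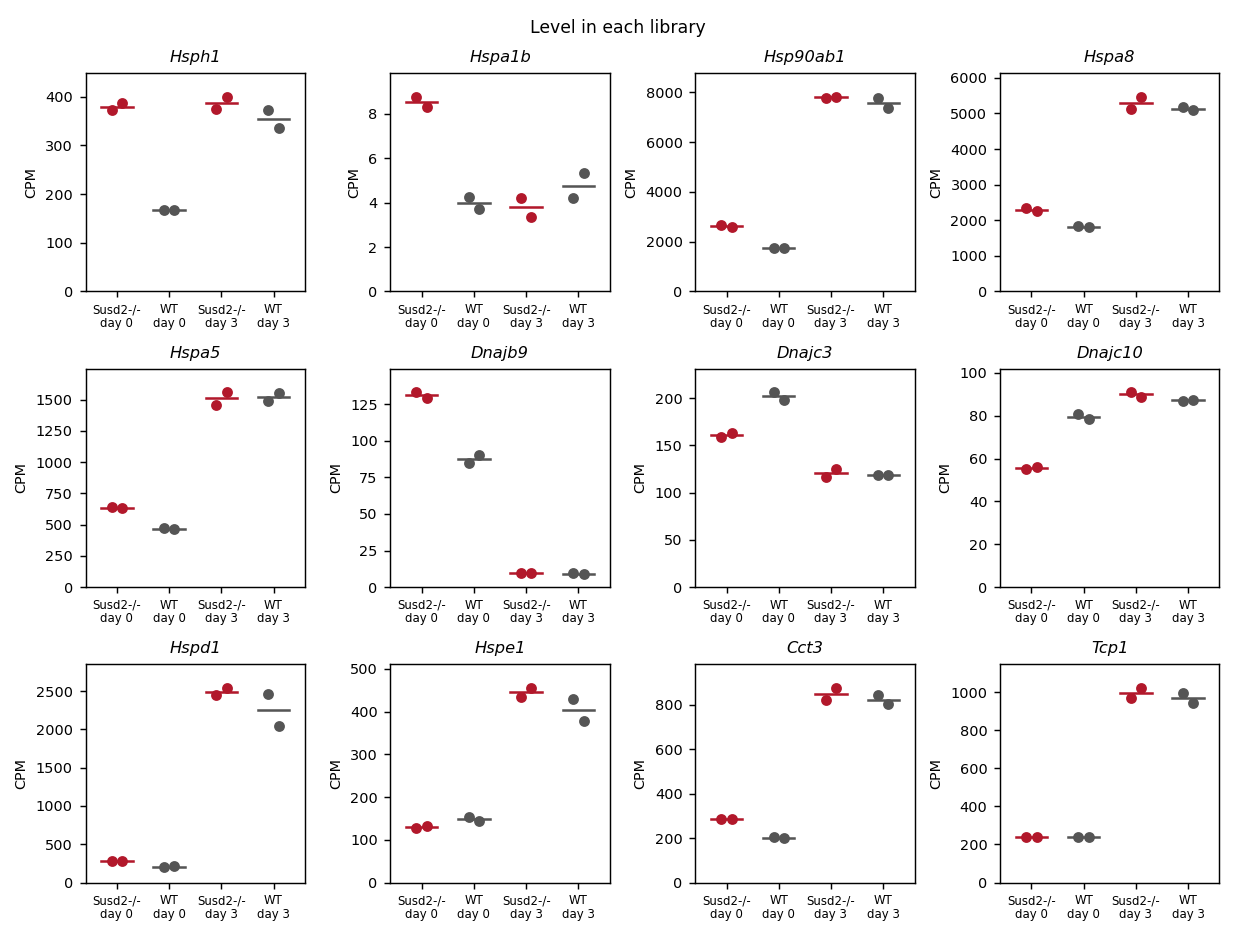
Points give the CPM of 12 chaperone genes in each of the 8 libraries, and lines give the mean of the 2 libraries of a group. Hsph1, Hspa1b, Hsp90ab1, Hspa8, Hspa5, Dnajb9, Hspd1 and Cct3 were higher, and Dnajc3 and Dnajc10 lower, in Susd2-/- cells than in WT cells at day 0, while Hspe1 and Tcp1 did not pass the test.

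Genes outside the chaperone families that work with HSP70 and HSP90 were described with a list of 24 heat shock factors and cytosolic co-chaperones. Of the 23 tested, 13 were higher in Susd2-/- cells at day 0, 1 was lower and 9 did not pass, with a median log2 fold change of 0.32, against 0.0077 for all genes. Stip1, the adaptor (Hop) that passes clients between HSP70 and HSP90, had 309 and 288 CPM in Susd2-/- cells, against 168 and 181 CPM in WT cells (log2 fold change 0.77 ± 0.063 (SE), adjusted p = 1.21e-07). Fkbp5, a co-chaperone of HSP90 in steroid receptor complexes, had 150.1 and 150.0 CPM in Susd2-/- cells, against 86.4 and 87.1 CPM in WT cells (log2 fold change 0.79 ± 0.071 (SE), adjusted p = 3.38e-07). St13, the HSP70-interacting protein Hip, had 175 and 174 CPM in Susd2-/- cells, against 110.4 and 107 CPM in WT cells (log2 fold change 0.68 ± 0.060 (SE), adjusted p = 2.79e-07). For these genes both Susd2-/- libraries lay above both WT libraries. The member of the list that fell was Sugt1, a co-chaperone of HSP90 (SGT1), with 95.8 and 95.7 CPM in Susd2-/- cells, against 142 and 149.5 CPM in WT cells (log2 fold change -0.61 ± 0.067 (SE), adjusted p = 3.13e-06). Hsf1, a heat shock factor, had 77.5 and 76.6 CPM in Susd2-/- cells, against 61.5 and 56.6 CPM in WT cells (log2 fold change 0.38 ± 0.073 (SE), adjusted p = 0.000838). It is named here for its role, after its values were seen. Hsf2, another heat shock factor, did not pass (log2 fold change -0.03 ± 0.12 (SE), adjusted p = 0.873). With both day 0 libraries of a genotype summed and counted as 1, 7 of the 23 were higher and 1 lower.

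**Figure D4:**
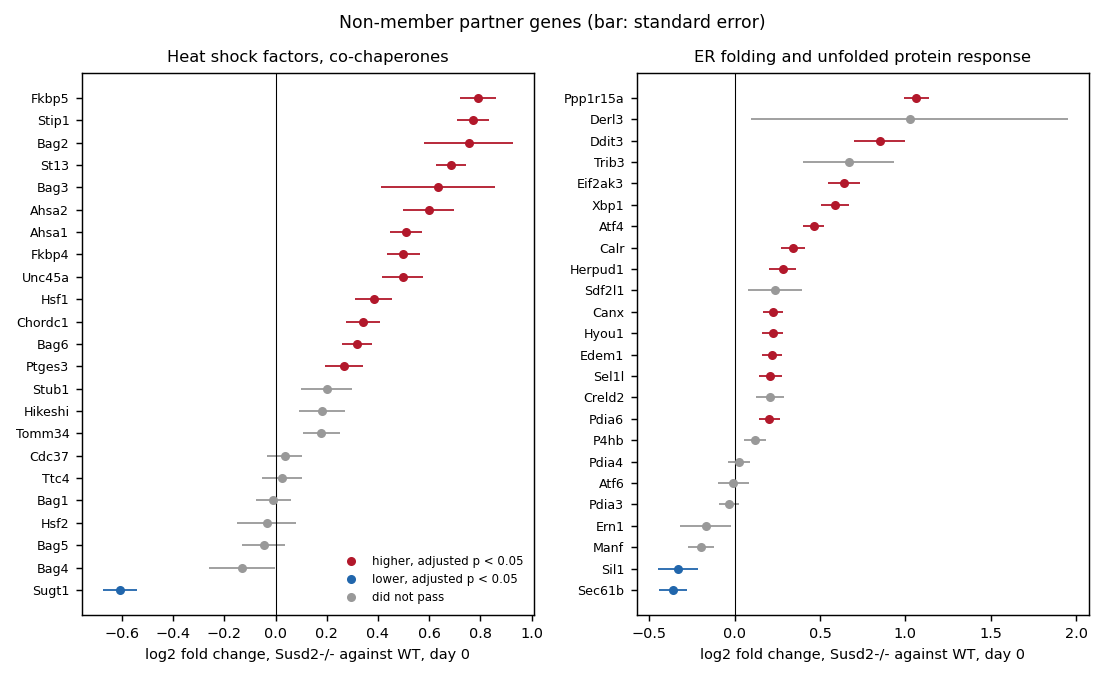
Points give the log2 fold change of Susd2-/- against WT at day 0, with bars of 1 standard error, for the 23 tested heat shock factors and cytosolic co-chaperones (left) and the 24 genes of ER folding and the unfolded protein response (right). Red points were higher (13 and 12 genes) and blue points lower (1 and 2 genes) at an adjusted p below 0.05.

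The chaperonin TRiC/CCT folds actin and tubulin in a ring of different subunits. Of its 9 tested genes, 1 rose and none fell at day 0. Cct3 had 286 and 284 CPM in Susd2-/- cells, against 204 and 200.2 CPM in WT cells (log2 fold change 0.50 ± 0.060 (SE), adjusted p = 8.6e-06). The other widely expressed subunits, Cct2, Cct4, Cct5, Cct6a, Cct7, Cct8 and Tcp1, had log2 fold changes of -0.08 (Cct5) to 0.13 (Cct2), and none passed. Tcp1, for example, had 240.2 and 239 CPM in Susd2-/- cells, against 239 and 237 CPM in WT cells (adjusted p = 0.934). Cct6b, a subunit of testis, had 0.129 to 0.500 CPM in the 8 libraries and was not called. Prefoldin, which delivers nascent actin and tubulin to the chaperonin, is encoded by genes that are not members. Of 7 prefoldin-related genes tested, 4 fell and none rose. Pfdn5 had 141 and 136 CPM in Susd2-/- cells, against 214 and 219.7 CPM in WT cells (log2 fold change -0.65 ± 0.064 (SE), adjusted p = 8.82e-07), Vbp1 had 46.6 and 44.9 CPM in Susd2-/- cells, against 64.7 and 67.3 CPM in WT cells (log2 fold change -0.53 ± 0.073 (SE), adjusted p = 3.62e-05), and Pfdn1 and Pdcl3 fell by 0.43 and 0.30 on the log2 scale (adjusted p = 0.00318 and 0.0125). Without library 4 of Susd2-/- at day 0 the number that fell was 2, and it was also 2 with both day 0 libraries of a genotype counted as 1.

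In the ER, 4 of the 14 tested members rose and 3 fell in Susd2-/- cells at day 0. Hspa5, the ER HSP70 known as BiP, had 637 and 631 CPM in Susd2-/- cells, against 469.8 and 464 CPM in WT cells (log2 fold change 0.44 ± 0.059 (SE), adjusted p = 2.43e-05). Hsp90b1, the ER HSP90 known as GRP94, had 357 and 345 CPM in Susd2-/- cells, against 276 and 279 CPM in WT cells (log2 fold change 0.34 ± 0.057 (SE), adjusted p = 0.000306). Dnajb9 (ERdj4), a J protein of BiP, had 133 and 129 CPM in Susd2-/- cells, against 84.8 and 90.7 CPM in WT cells (log2 fold change 0.58 ± 0.072 (SE), adjusted p = 1.16e-05). Each of these genes had both Susd2-/- libraries above both WT libraries. Dnajb11 (ERdj3), another J protein of BiP, was just past the threshold, with 109 and 94.4 CPM in Susd2-/- cells, against 90.5 and 86.9 CPM in WT cells (adjusted p = 0.0496).

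The 3 ER members that fell are also J proteins. Dnajc3 (p58IPK), a J protein of BiP and inhibitor of the kinase PERK, had 159 and 164 CPM in Susd2-/- cells, against 207 and 199 CPM in WT cells (log2 fold change -0.33 ± 0.063 (SE), adjusted p = 0.000881). Dnajc10 (ERdj5), a disulfide reductase that aids ER-associated degradation, had 55.1 and 56.2 CPM in Susd2-/- cells, against 80.7 and 78.4 CPM in WT cells (log2 fold change -0.52 ± 0.068 (SE), adjusted p = 2.3e-05). Dnajc14 (DRIP78), which binds membrane receptors in the ER, had 85.5 and 86.1 CPM in Susd2-/- cells, against 112 and 109 CPM in WT cells (log2 fold change -0.36 ± 0.078 (SE), adjusted p = 0.00246). For each of the 7 called ER members the libraries of the genotypes did not overlap, which adds no support to calls made on the same libraries. Hspa13, an HSP70 of the microsomes, did not pass, with 17.3 and 20.2 CPM in Susd2-/- cells, against 21.3 and 19.1 CPM in WT cells (adjusted p = 0.551). Nor did the J proteins Dnajb12, Dnajb14, Dnajc1, Dnajc16, Dnajc18 and Dnajc25, with log2 fold changes of -0.32 (Dnajb14) to 0.17 (Dnajc16).

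The ER stress element, to which factors of the unfolded protein response bind, was searched as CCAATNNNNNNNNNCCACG on both strands. It is in windows of 3 of the 12 ER members that have one (Hspa5, Hsp90b1 and Dnajc3), in no window of another member, and in 0.119% of all windows. Of these 3 genes, Hspa5 and Hsp90b1 rose and Dnajc3 fell at day 0. Their stretches (Hspa5 at chr2:34771870-34772119, plus strand; Hsp90b1 at chr10:86705415-86705664, minus strand; Dnajc3 at chr14:118937712-118937961, plus strand), again from 220 bases before to 30 bases after the RefSeq start, are shown because the genes share the element and differ in direction. Capitals mark the element, which occurs in both orientations in Hsp90b1.
Hspa5: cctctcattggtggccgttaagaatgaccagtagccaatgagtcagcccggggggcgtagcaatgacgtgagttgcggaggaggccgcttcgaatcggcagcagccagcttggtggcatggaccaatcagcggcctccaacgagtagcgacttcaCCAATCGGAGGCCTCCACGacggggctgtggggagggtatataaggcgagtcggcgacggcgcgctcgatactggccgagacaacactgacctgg
Hsp90b1: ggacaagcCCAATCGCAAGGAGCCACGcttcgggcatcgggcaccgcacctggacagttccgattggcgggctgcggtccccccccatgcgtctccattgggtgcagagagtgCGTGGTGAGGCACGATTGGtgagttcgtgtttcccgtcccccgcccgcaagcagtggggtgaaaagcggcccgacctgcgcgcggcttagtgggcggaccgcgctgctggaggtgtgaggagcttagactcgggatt
Dnajc3: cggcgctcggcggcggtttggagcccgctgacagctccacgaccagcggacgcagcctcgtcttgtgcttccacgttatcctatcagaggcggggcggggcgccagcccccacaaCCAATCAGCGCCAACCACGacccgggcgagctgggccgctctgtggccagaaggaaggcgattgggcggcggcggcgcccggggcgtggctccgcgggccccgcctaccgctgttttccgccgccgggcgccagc

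Of 24 other genes of ER folding and the unfolded protein response, 12 were higher, 2 lower and 10 did not pass at day 0 (median log2 fold change 0.22, against 0.0077 for all genes). Values of the list ran from -0.36 to 1.06 on the log2 scale, and the 2 genes that fell are not among those named below. Ppp1r15a (GADD34), the phosphatase subunit that reverses the translation block of the stress response, had 471 and 437 CPM in Susd2-/- cells, against 217 and 217 CPM in WT cells (log2 fold change 1.06 ± 0.073 (SE), adjusted p = 9.1e-09). Atf4, the transcription factor of the PERK branch, had 224 and 211 CPM in Susd2-/- cells, against 153 and 163 CPM in WT cells (log2 fold change 0.46 ± 0.062 (SE), adjusted p = 2.48e-05). Xbp1, the transcription factor of the IRE1 branch, had 46.5 and 46.1 CPM in Susd2-/- cells, against 29.2 and 32.4 CPM in WT cells (log2 fold change 0.59 ± 0.082 (SE), adjusted p = 4.39e-05), and Eif2ak3, which encodes PERK, had 47.6 and 48.3 CPM in Susd2-/- cells, against 31.7 and 29.9 CPM in WT cells (log2 fold change 0.64 ± 0.094 (SE), adjusted p = 7.41e-05). Of the 4 protein disulfide isomerase genes on the list, named after their values were seen, Pdia6 rose (log2 fold change 0.20 ± 0.062, adjusted p = 0.0231), while Pdia3, Pdia4 and P4hb did not pass, with log2 fold changes of -0.03, 0.02 and 0.12. The count of 12 rested on the libraries in use. It was 5 without library 3 of Susd2-/- day 0, 6 without library 3 and 6 without library 4 of WT day 0, 7 without the filter on low counts, and 5 with both day 0 libraries of a genotype counted as 1.

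Of the 11 mitochondrial members tested, 2 rose and 3 fell at day 0. Hspd1, the chaperonin HSP60, had 278 and 288 CPM in Susd2-/- cells, against 207 and 210.2 CPM in WT cells (log2 fold change 0.44 ± 0.074 (SE), adjusted p = 0.00035). Hspe1, its lid HSP10, did not pass, with 129 and 133 CPM in Susd2-/- cells, against 154 and 144 CPM in WT cells (log2 fold change -0.19 ± 0.069 (SE), adjusted p = 0.0525), and both Susd2-/- libraries lay below both WT libraries. The ratio of Hspd1 CPM to Hspe1 CPM was 2.16 and 2.17 in Susd2-/- cells, against 1.34 and 1.46 in WT cells, and at day 3 it was 5.62 and 5.58 in Susd2-/- cells, against 5.75 and 5.40 in WT cells. Hspa9 (mortalin), the mitochondrial HSP70, did not pass, with 254 and 248 CPM in Susd2-/- cells, against 235 and 236 CPM in WT cells (adjusted p = 0.312), and neither did its J protein Dnaja3 (Tid1), with 46.2 and 36.4 CPM in Susd2-/- cells, against 46.2 and 43.6 CPM in WT cells. Dnajc11, a J protein tied to the cristae-organising MICOS complex, rose (log2 fold change 0.25 ± 0.068 (SE), adjusted p = 0.0114), but not without library 3 of Susd2-/- or either WT library of day 0. Those that fell were Dnajc19, a J protein of the import motor of the inner membrane, with 14.8 and 13.8 CPM in Susd2-/- cells, against 22.1 and 23.3 CPM in WT cells (log2 fold change -0.66 ± 0.12 (SE), adjusted p = 0.000373), its relative Dnajc15, with 94.9 and 98.2 CPM in Susd2-/- cells, against 117 and 124 CPM in WT cells (log2 fold change -0.32 ± 0.066 (SE), adjusted p = 0.00158), and the scarce Dnajc28, with 2.85 and 3.42 CPM in Susd2-/- cells, against 6.22 and 6.56 CPM in WT cells (adjusted p = 0.0153). Dnajc4 and Dnajc30 did not pass, with log2 fold changes of -0.41 (Dnajc4) and -0.39 (Dnajc30).

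Hspd1 (chr1:55077835-55088243, minus strand) and Hspe1 (chr1:55088132-55091307, plus strand) lie head to head, and a RefSeq start of Hspd1 (55087932) is 216 bases from that of Hspe1 (55088148). The table also holds a second Hspd1 start, at 55088243. Their annotated exons overlap on opposite strands, and the strand setting of the counting is not given in the sources used here, so reads of the overlap cannot be assigned with certainty. The stretch before the Hspe1 start (chr1:55087928-55088177, plus strand) covers the bases between the Hspd1 start at 55087932 and the Hspe1 start, within the annotated Hspd1 gene, and is shown because the windows of both genes hold its elements. Capitals mark heat shock elements, which overlap each other.
Hspe1: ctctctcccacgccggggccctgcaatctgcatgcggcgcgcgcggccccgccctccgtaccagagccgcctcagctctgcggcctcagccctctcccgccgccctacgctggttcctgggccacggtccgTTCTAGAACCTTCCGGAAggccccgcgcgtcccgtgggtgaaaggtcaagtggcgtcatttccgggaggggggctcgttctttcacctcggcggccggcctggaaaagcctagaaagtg

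Of 14 other genes of mitochondrial protein folding and turnover, 2 rose and 3 fell at day 0. Yme1l1, a protease of the inner membrane, had 159 and 168 CPM in Susd2-/- cells, against 204 and 204 CPM in WT cells (log2 fold change -0.32 ± 0.062 (SE), adjusted p = 0.00104), and Grpel1, the exchange factor of mortalin, had 42.4 and 41.4 CPM in Susd2-/- cells, against 50.5 and 52.0 CPM in WT cells (log2 fold change -0.29 ± 0.069 (SE), adjusted p = 0.00471). Hscb, a J protein of iron-sulfur cluster assembly, fell (log2 fold change -0.52 ± 0.14, adjusted p = 0.0123). Spg7, a protease subunit, rose (log2 fold change 0.28 ± 0.070, adjusted p = 0.00761), and so did Trap1, the mitochondrial HSP90, named after its values were seen (log2 fold change 0.18 ± 0.063, adjusted p = 0.0482). No gene of the list rose without library 3 of Susd2-/- or without library 3 of WT at day 0, 1 rose without library 4 of either genotype at day 0 or without either WT library of day 3, and with both day 0 libraries of a genotype counted as 1 none of the 14 passed.

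Of the 18 tested J proteins of the cytosol, nucleus and vesicles, 3 fell and none rose; with DESeq2 size factors, with total counts or in DESeq2 itself, 2 fell and 2 rose. None of the 18 was called without library 3 of Susd2-/- or without library 3 of WT at day 0, and 1 was without library 4 of either. Dnajc24, which takes part in the synthesis of diphthamide on elongation factor 2, had 7.85 and 9.30 CPM in Susd2-/- cells, against 14.0 and 11.5 CPM in WT cells (log2 fold change -0.57 ± 0.15 (SE), adjusted p = 0.00758). Dnajc27, a Rab-like GTPase with a J domain, had 18.8 and 19.8 CPM in Susd2-/- cells, against 24.5 and 25.0 CPM in WT cells (adjusted p = 0.0243). Dnajb6, a suppressor of protein aggregation, had 103 and 106 CPM in Susd2-/- cells, against 118 and 121 CPM in WT cells (adjusted p = 0.0316). The other 15 ran from -2.08 (Dnajb3) to 0.23 (Dnajb2) on the log2 scale, and among them Dnaja2, a J protein of cytosolic HSP70, had 200.2 and 197 CPM in Susd2-/- cells, against 204 and 216 CPM in WT cells. Among 3 tested small heat shock proteins, Hspb11, also known as the intraflagellar transport protein IFT25, fell, with 8.51 and 7.69 CPM in Susd2-/- cells, against 11.5 and 11.6 CPM in WT cells (adjusted p = 0.0453), while Hspb6 and the scarce Hspb9 did not pass. Exon length and log2 fold change at day 0 had a rank correlation of 0.14 over the 15737 tested genes with a length and of 0.25 over 71 members, so longer genes tended to have the higher values. The median exon length was 4032 bases for the members that were higher and 5046 bases for those that were lower. The part of exon length in the day 0 values was not tested.

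The day 0 counts depended on single libraries. The share of all genes called in each such fit is not given here. A changed count is therefore not read as a trait of the chaperones. In place of 25 members, 15 were called without library 3 of Susd2-/-, 14 without library 3 of WT and 16 without library 4 of WT at day 0. Of the 15 that rose, 9 passed in each of the 8 fits that left out a library, namely Hsph1, Hspa1b, Hsp90ab1, Hspa8, Cct3, Hspa5, Hsp90b1, Dnajb9 and Hspd1. Of the 10 that fell, 5 did, namely Dnajc3, Dnajc10, Dnajc14, Dnajc15 and Dnajc19. Dnaja4, Dnajb6, Dnajc27, Dnajc28 and Hspb11 were called in 4 of the 8, the fits that kept all day 0 libraries. Hsp90aa1, Dnaja1 and Dnajb11 were called in 2 of the 8. Of the 6 inducible members called, 3 were left without library 3 of Susd2-/-, and 2 without library 4 of Susd2-/- or without either WT library of day 0; these 2 were Hsph1 and Hspa1b. With both day 0 libraries of a genotype counted as 1, so that the spread came from day 3, 6 members were called, Hsph1, Hsp90ab1, Dnajb9 and Cct3 higher and Dnajc10 and Dnajc19 lower.

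The second comparison asked whether the genotypes differed after 3 days with peptide. None of the 72 tested members passed in edgeR or in DESeq2, and 5 had an unadjusted p below 0.05. Over all genes 0.137% were called. The smallest adjusted p of a member was 0.256. Hsph1 had 375 and 399.9 CPM in Susd2-/- cells, against 372 and 336 CPM in WT cells (log2 fold change 0.13 ± 0.064 (SE), adjusted p = 0.64), and the groups were apart by a narrow margin. Hspa1b had 4.21 and 3.37 CPM in Susd2-/- cells, against 4.20 and 5.31 CPM in WT cells (log2 fold change -0.34 ± 0.22 (SE), adjusted p = 0.764), and the groups overlapped. Hspa1a had 0.303 and 0.414 CPM in Susd2-/- cells, against 1.13 and 1.45 CPM in WT cells (log2 fold change -1.81 ± 0.50 (SE), adjusted p = 0.256). Hspa5 had 1462 and 1561 CPM in Susd2-/- cells, against 1488 and 1554 CPM in WT cells (log2 fold change -0.01), with overlapping groups. Hspd1 had 2446 and 2546 CPM in Susd2-/- cells, against 2465 and 2046 CPM in WT cells (log2 fold change 0.15 ± 0.072 (SE), adjusted p = 0.644). Without library 1 of WT at day 3, Hspd1 (0.33, adjusted p = 0.0133) was higher and Dnaja4 (-0.76, adjusted p = 0.0162) lower. The biological coefficient of variation, edgeR's measure of spread between libraries, was 10.1% at day 3 and 5.38% at day 0.

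Whether the genotype difference itself changed between the days was tested with the interaction of genotype and day, the log2 fold change of Susd2-/- against WT at day 3 minus that at day 0. Of the 72 members, 16 passed, 6 with a positive and 10 with a negative value. Over all genes 13.5% passed, 6.6% positive and 6.88% negative. The interaction used the same day 0 libraries as the first comparison, so it is not independent of it. Hsph1 had an interaction of -1.06 ± 0.091 (SE, adjusted p = 5.02e-07). It was followed by Hsp90ab1 (-0.56 ± 0.081, adjusted p = 0.000161), Hspa5 (-0.45 ± 0.082, adjusted p = 0.00125) and Cct3 (-0.45 ± 0.084, adjusted p = 0.00143) among the negative values with the smallest adjusted p. Each of these genes was higher in Susd2-/- cells at day 0 and was not called at day 3. On the positive side stood Dnajc10 (0.56 ± 0.095, adjusted p = 0.000668) and Dnajc19 (0.67 ± 0.16, adjusted p = 0.00839), which were lower in Susd2-/- cells at day 0 and not called at day 3. Hspe1, which did not pass at either day, had an interaction of 0.33 ± 0.096 (adjusted p = 0.0273), with a day 0 value of -0.19 and a day 3 value of 0.14, but it passed in only 3 of the 8 fits that left out a library. Of the 16, Hsph1, Hspa1a, Hspa1b, Hsp90ab1, Hspa5, Cct3, Dnajc10 and Dnajc19 passed in all 8 of these fits. The count of 16 was 9 without library 3 of Susd2-/- and 10 without library 3 of WT at day 0, and 2 (Hsph1 and Dnajc10) with both day 0 libraries of a genotype counted as 1.

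The third comparison asked how cells stimulated with peptide for 3 days differed from untreated cells in each genotype. No group was cultured for 3 days without peptide, and markers of other cells also differed between the days. Effects of the peptide, of time in culture and of the loss of other cells therefore cannot be told apart. In Susd2-/- cells 41 of 72 tested members rose, 18 fell and 13 did not pass, and over all genes 76.4% were called, 36.7% higher and 39.7% lower. In WT cells 40 rose, 15 fell and 17 did not pass, and over all genes 75.2% were called, 36.2% higher and 39% lower. The share of members that rose was thus 56.9% in Susd2-/- cells and 55.6% in WT cells. The comparisons share no libraries, and 49 members were called in the same direction in both and none in opposite directions. The same count was not made over all genes, of which 76.4% and 75.2% were called. The agreement is therefore not given as a trait of the chaperones. The median log2 fold change of the members was 0.76 in Susd2-/- cells, against -0.12 for all genes, and 0.60 in WT cells, against -0.14 for all genes. With scaling to total counts alone the median of all genes moved to -0.32 in both genotypes, and the members' medians were 0.56 in Susd2-/- cells and 0.42 in WT cells.

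**Figure D5:**
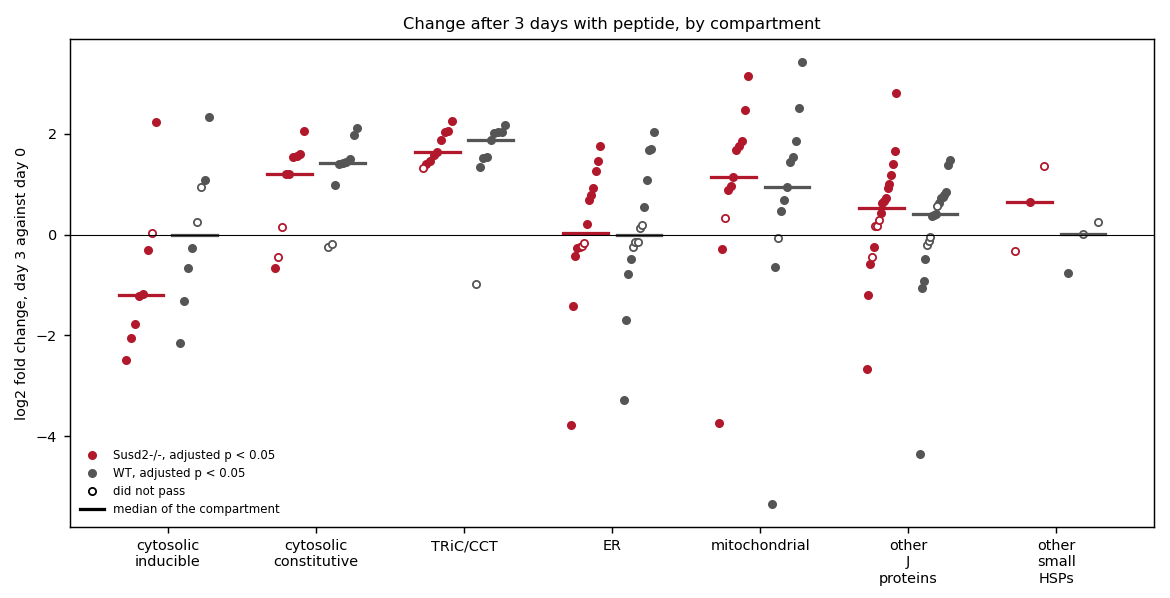
Points give the log2 fold change of day 3 against day 0 for each of the 72 tested members, by compartment, in Susd2-/- cells (red) and WT cells (grey), with filled points at an adjusted p below 0.05 and lines at the median. In both genotypes 8 of 9 TRiC/CCT genes and 8 of 11 mitochondrial genes rose, while inducible cytosolic genes lay on both sides of 0.

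Hspd1 showed the largest rise of the tested members in both genotypes. In Susd2-/- cells Hspd1 had 2446 and 2546 CPM at day 3, against 278 and 288 CPM at day 0 (log2 fold change 3.14 ± 0.079 (SE), adjusted p = 1.41e-16), and in WT cells 2465 and 2046 CPM at day 3, against 207 and 210.2 CPM at day 0 (log2 fold change 3.43 ± 0.080 (SE), adjusted p = 5.38e-17). Hspe1 rose less, with log2 fold changes of 1.77 ± 0.069, adjusted p = 1.73e-14 in Susd2-/- cells and 1.44 ± 0.069, adjusted p = 3.76e-13 in WT cells. Hspa9 had 1369.7 and 1413 CPM at day 3, against 254 and 248 CPM at day 0 in Susd2-/- cells, and 1417 and 1275 CPM at day 3, against 235 and 236 CPM at day 0 in WT cells. In both genotypes 8 of the 11 mitochondrial members rose and 2 fell. The 2 that fell were Dnajc15 (log2 fold change -0.28 in Susd2-/- cells and -0.64 in WT cells) and Dnajc28, which had 0.337 and 0.158 CPM at day 3, against 2.85 and 3.42 CPM at day 0 in Susd2-/- cells, and 0.129 and 0.177 CPM at day 3, against 6.22 and 6.56 CPM at day 0 in WT cells, and which passed the filter through its day 0 libraries.

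All 8 widely expressed TRiC/CCT subunits rose together in both genotypes. Their log2 fold changes ran from 1.41 (Cct2) to 2.25 (Cct6a) in Susd2-/- cells and from 1.35 (Cct4) to 2.17 (Cct6a) in WT cells. Tcp1 had 968 and 1023 CPM at day 3, against 240.2 and 239 CPM at day 0 in Susd2-/- cells, and 998 and 945 CPM at day 3, against 239 and 237 CPM at day 0 in WT cells. The genes of the prefoldin list rose too, 6 of 7 in each genotype, except Pfdn5, which fell by 0.58 on the log2 scale in Susd2-/- cells and by 1.39 in WT cells. Among constitutive cytosolic members 6 rose and 1 fell in Susd2-/- cells, and 7 rose and none fell in WT cells. Hsp90ab1 had 7764 and 7826 CPM at day 3, against 2688 and 2588 CPM at day 0 in Susd2-/- cells (log2 fold change 1.56 ± 0.058 (SE), adjusted p = 7.97e-15), and 7763 and 7372 CPM at day 3, against 1738 and 1737 CPM at day 0 in WT cells (log2 fold change 2.12 ± 0.059 (SE), adjusted p = 1.17e-16). Hspa4 rose by 2.06 in Susd2-/- cells and by 1.98 in WT cells on the log2 scale (adjusted p = 4.17e-16 and 7.23e-16). The member that fell in Susd2-/- cells was Hspbap1, a binding partner of HSP27 (log2 fold change -0.67 ± 0.13 (SE), adjusted p = 0.00013), which in WT cells had a value of -0.25 and did not pass.

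The inducible cytosolic members did not share a direction. In Susd2-/- cells 1 rose and 6 fell, and in WT cells 2 rose and 4 fell, of 8 tested. Hsp90aa1 rose in both, with 2386 and 2554 CPM at day 3, against 535 and 515 CPM at day 0 in Susd2-/- cells (log2 fold change 2.23 ± 0.062 (SE), adjusted p = 1.01e-16), and 2409 and 2294 CPM at day 3, against 467 and 466 CPM at day 0 in WT cells (log2 fold change 2.33 ± 0.062 (SE), adjusted p = 5.77e-17). The J proteins fell in both. Dnajb1 had 71.8 and 78.1 CPM at day 3, against 181 and 168 CPM at day 0 in Susd2-/- cells, and 67.5 and 83.6 CPM at day 3, against 192 and 185 CPM at day 0 in WT cells (log2 fold changes -1.22 and -1.32). Dnajb4 had 7.68 and 8.57 CPM at day 3, against 43.6 and 47.9 CPM at day 0 in Susd2-/- cells, and 8.04 and 7.47 CPM at day 3, against 34.9 and 34.4 CPM at day 0 in WT cells. Dnaja4 and Dnaja1 fell as well, although in WT cells Dnaja4 did not pass without library 1 of day 3 (adjusted p = 0.0625) and Dnaja1 did not pass without library 3 of day 0 (adjusted p = 0.0562). Hsph1 rose in WT cells (log2 fold change 1.09 ± 0.065 (SE), adjusted p = 1.17e-11) and did not pass in Susd2-/- cells (log2 fold change 0.03 ± 0.064 (SE), adjusted p = 0.672; -0.17, adjusted p = 0.0196, with total counts). Hspa1b fell in Susd2-/- cells (log2 fold change -1.18 ± 0.21 (SE), adjusted p = 6.24e-05) and did not pass in WT cells (log2 fold change 0.26, adjusted p = 0.301).

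ER members moved in both directions. In Susd2-/- cells 7 rose and 5 fell of 14, and in WT cells 5 rose and 4 fell. Hspa5 had 1462 and 1561 CPM at day 3, against 637 and 631 CPM at day 0 in Susd2-/- cells (log2 fold change 1.25 ± 0.059 (SE), adjusted p = 2.78e-13), and 1488 and 1554 CPM at day 3, against 469.8 and 464 CPM at day 0 in WT cells (log2 fold change 1.70 ± 0.060 (SE), adjusted p = 3.32e-15). Hsp90b1 rose by 1.76 in Susd2-/- cells and by 2.04 in WT cells, and Dnajb11 rose by 1.46 in Susd2-/- cells and by 1.68 in WT cells. Dnajb9 fell furthest of the ER members, with 9.70 and 9.36 CPM at day 3, against 133 and 129 CPM at day 0 in Susd2-/- cells (log2 fold change -3.79 ± 0.085 (SE), adjusted p = 5.7e-18), and 9.30 and 8.67 CPM at day 3, against 84.8 and 90.7 CPM at day 0 in WT cells (log2 fold change -3.29 ± 0.087 (SE), adjusted p = 5.42e-17). Dnajc3 fell in both genotypes (-0.42 in Susd2-/- cells and -0.78 in WT cells). Of the 24 other ER genes 17 rose and 5 fell in Susd2-/- cells, and 20 rose and 3 fell in WT cells. Ppp1r15a fell with Dnajb9, by 3.45 in Susd2-/- cells and 2.25 in WT cells on the log2 scale, while Xbp1 rose by 1.76 in Susd2-/- cells and 2.45 in WT cells.

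Of the co-chaperone list 16 of 23 rose and 3 fell in Susd2-/- cells, and 19 rose and 2 fell in WT cells, and of the mitochondrial list 11 of 14 rose and none fell in Susd2-/- cells, and 13 rose and 1 fell in WT cells. Among the other J proteins 10 of 18 rose and 4 fell in each genotype. Dnajc2, a J protein on the ribosome, rose by 1.66 in Susd2-/- cells and 1.49 in WT cells, and Dnajc21, which helps to mature the large ribosomal subunit, by 1.18 in Susd2-/- cells and 1.38 in WT cells. Dnajc9, a histone chaperone, had 216 and 225 CPM at day 3, against 124 and 108 CPM at day 0 in Susd2-/- cells, and 213 and 213 CPM at day 3, against 129 and 129 CPM at day 0 in WT cells. Dnajc5, the cysteine string protein of secretory vesicles, fell (-0.59 in Susd2-/- cells and -0.48 in WT cells). Dnajc6 (auxilin), which uncoats clathrin vesicles, had 0.135 and 0.355 CPM at day 3, against 2.15 and 1.23 CPM at day 0 in Susd2-/- cells, and 0.194 and 0.142 CPM at day 3, against 2.91 and 4.17 CPM at day 0 in WT cells, and had to differ to pass the filter on low counts.

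Counts were too low to test 7 members. Hspa12a, Hspa12b, Hspb1, Hspb7, Dnajb7, Dnajb8 and Dnajc22 had at most 28 counts in any library. A further 6 (Cct6b, Dnajb3, Dnajc28, Dnajc6, Hspa1a and Hspb9) passed the filter with fewer than 2 libraries of some group at the minimum of 0.330 CPM. Counts can be shared with near-identical copies. Of 77 members with a GENCODE M21 coding transcript, 12 matched a transcript of another gene at 97% identity or more over at least 300 bases. For Dnajb6 and Hspa14 the counts of such copies came to 10.7% and 10.6% of the member's own, for Dnaja1 to 6.08%, for Hspa8 to 2.42%, for Hspd1 to 1.71% and for Hsp90aa1 to 1.15%. Exons of Dnajc14 also overlap those of Sarnp on the same strand, and exons of Dnaja1 (Smu1), Dnaja4 (Wdr61), Dnajc19 (Fxr1), Dnajc24 (Dcdc5) and Tcp1 (Mrpl18), among others, overlap the gene in brackets on the opposite strand, so some of their reads may belong to it.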

How the data were processed

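Per the file headers, the deposited values are raw counts per gene symbol, with 1 column for each sequencing lane. Tools listed in the submitters' processing notes are Subread 2.0.1, SAMtools 1.10, HISAT2 2.1.0 and fastp 0.23.2, with GRCm38 as the genome build. How strand and multiply aligned reads were handled is not given in the sources used here. The 15 lanes were summed to 8 libraries, 2 in each of 4 groups. Genes were filtered with filterByExpr, which kept 16057, and scaled by TMM. All libraries entered 1 quasi-likelihood fit (edgeR 4.0.16, limma 3.58.1, R 4.3.3), with Benjamini-Hochberg adjustment over all tested genes and a threshold of 0.05. CPM are counts scaled to 1000000 per library with the TMM factors. With 2 libraries a group the precision is low. Promoter windows come from RefSeq, and gene positions from GENCODE M21.

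Alternatives were DESeq2 1.42.0, other scalings, no filter, the day 0 libraries alone, a block for the library number, Hspa1a and Hspa1b summed, leaving out each library, and counting the day 0 libraries of a group as 1, which was chosen after seeing the data. Libraries with the same number did not deviate together (correlation 0.0086 at day 0 and -0.010 at day 3). No pairing by number was thus seen at day 3. At day 0 the check cannot decide, since the WT libraries differed little more than lanes did. The members and lists were chosen with earlier results of these data known. Genes were named by role, by smallest adjusted p in a comparison (up to 10 in each direction, and up to 4 for each list), or because they were called in opposite directions in 2 comparisons. The main fit was tested on simulated counts for the day 0 genotype comparison. It recovered 66 of 100 genes changed 1.5-fold and 79 of 100 changed 2-fold, with 9 false calls among 15480 genes tested. A member that did not pass may thus still differ. The simulated counts used the same spread per gene at both days. In the data the biological coefficient of variation was 5.38% at day 0 and 10.1% at day 3. Libraries of a group were drawn as independent, which the labels leave unsaid for the real ones. The recovery and the false calls hold for that setting only. The other comparisons were not simulated. A member that is part of the counts is not reported here by name.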

Additional observations from a re-analysis of the deposited data

Results flagged for a closer look

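The genotype difference changed between the days for 16 members by the test of that difference in edgeR (adjusted p below 0.05). They were 22.2% of the 72 tested members, against 13.5% of all genes. Each value is the log2 fold change of Susd2-/- against WT at day 3 minus that at day 0, so a negative one means that the difference was lower at day 3. Negative values were found for Hspa1a (-3.01), Hspa1b (-1.44), Dnaja4 (-1.10), Hsph1 (-1.06), Hsp90ab1 (-0.56), Dnajb9 (-0.50), Cct3 (-0.45), Hspa5 (-0.45), Hspa8 (-0.29) and Hsp90b1 (-0.28). Positive values were found for Dnajc19 (0.67), Dnajc24 (0.61), Dnajc10 (0.56), Dnajc15 (0.36), Dnajc3 (0.36) and Hspe1 (0.33). Not all held when 1 library was left out in turn. Hspa8 and Hsp90b1 passed in 2 of the 8 such fits, Hspe1 in 3, Dnajc24 in 4, Dnajb9 in 5, and Dnaja4, Dnajc3 and Dnajc15 in 6, while the other 8 members passed in all 8. Hspa1a and Hspa1b rest on few counts that may be split wrongly between the near-identical genes. Markers of macrophages and monocytes were higher in Susd2-/- cells at day 0 and far lower in all groups at day 3, B cell markers were higher in Susd2-/- cells at day 0 as well, and their part in these values was not tested.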

How the results depend on the processing

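The number of members called between the genotypes at day 0 was 25. It ran between 14 and 27 when 1 library was left out, and was 38 with the 4 libraries of day 0 alone and 6 with both day 0 libraries of a genotype counted as 1. At day 3 it ran between 0 and 2 when 1 library was left out. The number with an interaction was 16, ran between 9 and 16 when 1 library was left out, and was 2 with both day 0 libraries of a genotype counted as 1. The cause of these changes was not tested, and a fit that leaves out a library also rests on fewer libraries. Shares of all genes called in the same fits are not given here, so these changes are not given as a trait of the chaperones. For day 3 against day 0 the number ran between 54 and 59 in Susd2-/- cells and between 52 and 55 in WT cells when 1 library was left out. With a block for the replicate number, 19 members were called at day 0, 0 at day 3 and 14 for the interaction. Whether this number pairs the day 0 libraries is not known. Of 43 named members, the change between days of Hsph1 in Susd2-/- cells turned from 0.03 to -0.17 with total counts, which use no composition factor. With total counts the summed CPM of all members was 14538 in Susd2-/- cells and 12002 in WT cells at day 0, and 33790.0 in Susd2-/- cells and 32215 in WT cells at day 3. Without Hspa8, Hsp90ab1, Hspa1a and Hspa1b, which have near-identical copies or dominate the sum, it was 8505 in Susd2-/- cells and 7811 in WT cells at day 0, and 22837 in Susd2-/- cells and 21918 in WT cells at day 3. Depth limits the members under about 10 CPM, such as Hspa1a, Hspa1b and Dnajc28.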
